A study of Mus musculus with 10 samples.

Results

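The genes described here are the carriers of amino acids, glucose and lactate: each row of the count data whose symbol begins with Slc1a, Slc2a, Slc3a, Slc7a, Slc16a, Slc36a, Slc38a or Slc43a and ends in digits. The rule chose 68 of the 48321 gene symbols by name and used no measured value, but it was set with earlier results of these data known. Shares of members called are therefore given as description beside those of all genes. Of the 68 genes, 35 reached 10 counts in 2 or more of the 10 libraries. A filter on low counts kept 34 of them for testing. *Slc2a6*, with at most 20 counts, was the exception. Among the other 34 genes, 7 had no count in any library, 25 had between 1 and 9 counts at most, and *Slc2a6* and *Slc16a11* (at most 13 counts) reached 10 in some library.

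RNA-seq was carried out on CD4+ T cells sorted from the spleens of C57BL/6 mice aged 8 to 12 weeks, of mixed sexes. The mice carried a GFP reporter of *Foxp3*, and cells were gated on GFP, taken here to stand for FoxP3, and on CD25, the IL-2 receptor alpha chain. Control mice (WT) had intact *Satb1*, and Satb1 F/F:Thpok-cre mice (KO) carried a floxed *Satb1* and a Cre driven by *Thpok*, which acts in CD4 lineage cells in general and so in regulatory T (Treg) cells and other CD4+ T cells alike. The 5 groups of 2 libraries were WT FoxP3+CD25+, KO FoxP3+CD25+ (both Treg cells), WT FoxP3-CD25-, KO FoxP3-CD25- (both non-Treg cells) and KO FoxP3+CD25-, a population that carries the reporter without CD25. There was no WT FoxP3+CD25- group, so traits of that population could not be compared between genotypes. Comparisons of it with WT groups differ in both genotype and sorted population. The question behind the groups was how SATB1 loss alters CD4+ T cells and where the FoxP3+CD25- population stands. Library numbers were taken to be mice, as the labels imply without saying so.

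Each library held between 6094952 and 12410064 reads assigned to genes (median 7721649), and the 68 transporter genes took between 0.164% and 0.189% of them. Counts per gene of *Satb1* were not lower in the libraries labelled KO (534 to 1186 CPM, counts scaled by library size) than in WT (379 to 881 CPM), and they do not resolve the deleted part of the gene, so they do not check the deletion. WT replicate 1 stood apart, with *Xist* at 14487 and 16362 counts in its 2 libraries and no chromosome Y count. The other 8 libraries had at most 4 *Xist* counts and 3039 to 4750 counts on chromosome Y genes. This is the pattern of a female for WT replicate 1 and of males for WT replicate 2 and both KO replicates. The labels give no sex. Sex and WT replicate cannot be told apart, so some results with WT libraries, but not all, are also given without WT replicate 1. The summed level of 4 T cell markers (*Cd3e*, *Cd3g*, *Cd4* and *Trac*) lay between 2185 and 2923 CPM in all 10 libraries. The 4 Treg markers (*Foxp3*, *Il2ra*, *Ikzf2*, *Ctla4*) summed to 2558 to 3284 CPM in FoxP3+CD25+ cells, 455 to 608 CPM in the KO FoxP3+CD25- population and 123 to 303 CPM in FoxP3-CD25- cells. The 4 B cell markers summed to 16.2 to 20.3 CPM in the FoxP3+CD25+ groups and to 1.65 to 6.62 CPM elsewhere, mostly *Cd79b*. The 3 dendritic cell markers summed to 3.01 to 7.04 CPM in the FoxP3+CD25+ groups and to 0.875 to 1.82 CPM elsewhere, mostly *Zbtb46*, with *Itgax* at 0 in 6 and *Flt3* at 0 in 7 libraries. The part of these markers in any transporter value was not tested. Bulk RNA-seq cannot tell fewer cells that express a gene apart from less RNA per cell.

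Carriers of the SLC families move nutrients across membranes without using ATP directly. SLC2 carriers (GLUT) pass glucose down its gradient, SLC16 carriers (MCT) pass lactate and other monocarboxylates together with a proton, and SLC7 light chains such as LAT1 work as pairs with an SLC3 heavy chain and exchange one amino acid for another. SLC1 carriers take up glutamate or, as with ASCT1 and ASCT2, neutral amino acids, SLC38 carriers and most SLC43 carriers move neutral amino acids, and SLC36 and some SLC38 members sit on the lysosome, where amino acids feed into the mTORC1 kinase. Activated T cells are known to raise glucose, glutamine and leucine uptake.

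The 34 tested genes covered a wide range of levels. On the scale of CPM per kilobase of exon, which allows genes to be compared, the mean over 10 libraries ran from 0.233 (*Slc7a4*) to 38.6 (*Slc1a5*), with a median of 3.79 against 6.90 for all genes ranked. There were 13 members above that median of all genes. The 10 highest, in falling order, were *Slc1a5*, *Slc38a2*, *Slc3a2*, *Slc38a10*, *Slc2a3*, *Slc7a5*, *Slc2a1*, *Slc38a1*, *Slc7a6* and *Slc7a1*. They thus include the glutamine carrier ASCT2 (*Slc1a5*, 38.6), the neutral amino acid carrier SNAT2 (*Slc38a2*, 37.4), the heavy chain CD98 (*Slc3a2*, 31.0), the leucine carrier LAT1 (*Slc7a5*, 15.2) and both main glucose carriers.

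**Figure D1:**
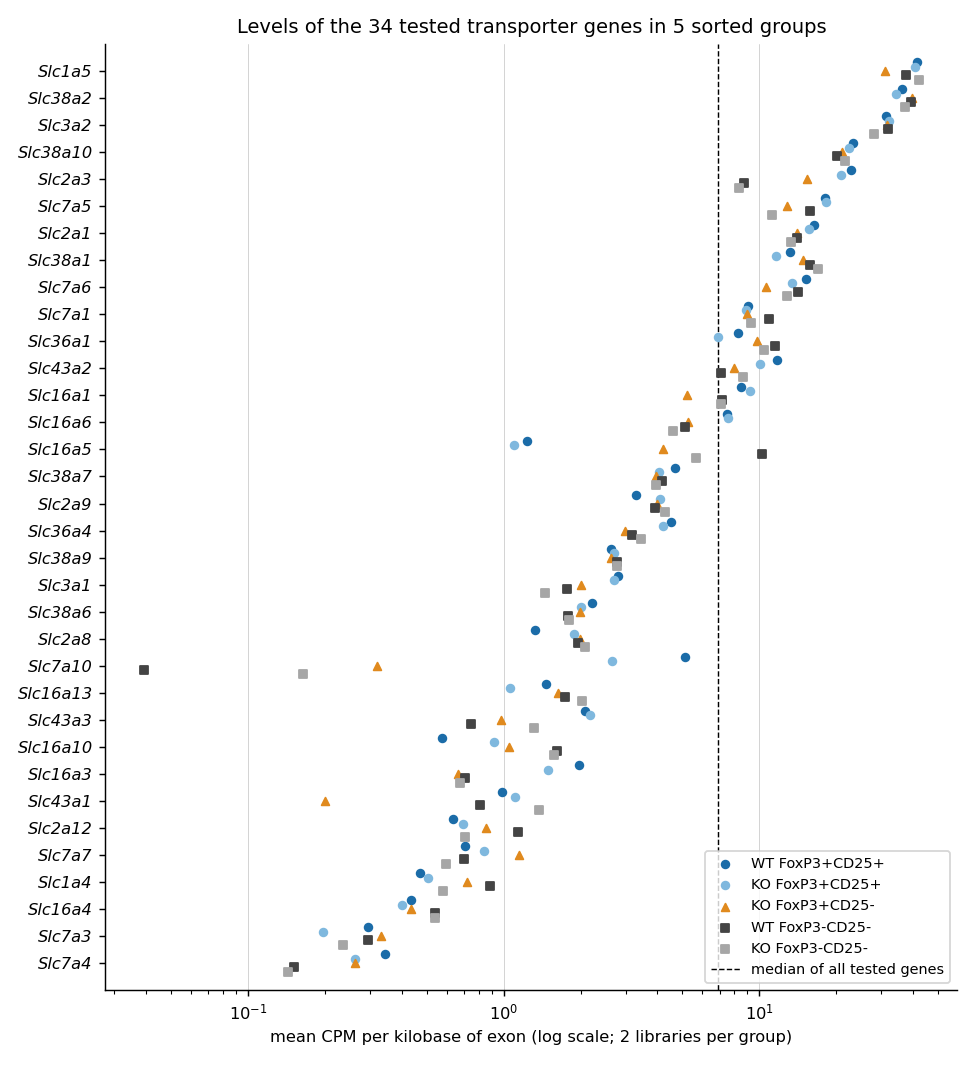
Mean CPM per kilobase of exon (x axis, log scale) of the 34 tested transporter genes (y axis, ordered by their mean over 10 libraries), with 1 point per sorted group of 2 libraries and a dashed line at 6.90, the median of all genes ranked. *Slc1a5* is at the top with 38.6, and *Slc7a10*, *Slc16a5* and *Slc43a1* have group means that lie far apart.

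Within a library the order of related carriers was mostly fixed. *Slc38a2* was above *Slc38a1* per kilobase in 10 of 10 libraries (1.99 to 3.24 times), *Slc3a2* above *Slc7a5* in 10 (1.66 to 2.86 times) and *Slc16a1* above *Slc16a3* in 10 (3.51 to 16.5 times). All these orders rest on lengths that take in every annotated exon, and whether the cells use each exon was not tested. *Slc2a3* (GLUT3) and *Slc2a1* (GLUT1) changed places between populations on this scale. In plain CPM *Slc2a3* was above *Slc2a1* in every library, so which is higher depends on the lengths used (7245 and 3506 bases). *Slc2a3* was the higher of the pair per kilobase in the 6 libraries of FoxP3+ cells, by 1.37 to 1.43 times in WT Treg, 1.20 to 1.49 times in KO Treg and 1.06 to 1.13 times in KO FoxP3+CD25- cells. In FoxP3-CD25- cells it was the lower one in all 4 libraries (0.544 to 0.698 times *Slc2a1* in WT, 0.589 to 0.658 times in KO). *Slc7a5* (LAT1) was above *Slc7a6* (y+LAT2) per kilobase in 8 libraries (1.11 to 1.39 times) and below it in both KO FoxP3-CD25- libraries (0.869 and 0.883 times).

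The 9 comparisons were tested with edgeR's quasi-likelihood test over 13796 genes, with Benjamini-Hochberg adjustment (FDR). For Treg (FoxP3+CD25+) against non-Treg (FoxP3-CD25-) cells of WT mice, 9 of 34 transporter genes (26.5%) were called at FDR under 0.05, 6 higher and 3 lower in Treg cells, where 10.9% of all genes were called (7.15% higher, 3.75% lower). For the same populations of KO mice, 7 of 34 (20.6%) were called, 4 higher and 3 lower, against 6.34% of all genes (3.52% higher, 2.81% lower). The median log2 fold change of the members was 0.13 in WT and 0.04 in KO, against -0.02 and -0.00 over all genes.

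KO FoxP3+CD25- cells differed from KO non-Treg cells in 2 members, 1 higher and 1 lower, where 1.67% of all genes were called (0.319% higher, 1.35% lower). Against WT non-Treg cells 1 member was higher and 0 lower, where 0.768% of all genes were called (0.355% higher, 0.413% lower). Against KO Treg cells 7 members were called, 2 higher and 5 lower, and 7.01% of all genes (2.25% higher, 4.76% lower). Against WT Treg cells 9 were called, 1 higher and 8 lower, and 11.2% of all genes (3.88% higher, 7.34% lower). These 4 comparisons share the KO FoxP3+CD25- libraries, so they are not independent of each other. In all, 14 members were called in some comparison and 20 in none of the 9.

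Between KO and WT cells of the same sorted population, edgeR called no transporter gene. In FoxP3+CD25+ cells 1 of 34 had an unadjusted p under 0.05 (4.29% of all genes did) and 0.00725% of all genes were called. In FoxP3-CD25- cells 5 of 34 had such a p (8.02% of all genes) and 0.145% of all genes were called (0.116% higher, 0.029% lower). DESeq2 likewise called 0 members in either. The members with the lowest p were *Slc7a10* in FoxP3+CD25+ cells (5.63 ± 0.192 CPM in KO against 10.8 ± 5.21 in WT, SD, n = 2, unadjusted p = 0.0252 with edgeR, not called) and *Slc7a5* in FoxP3-CD25- cells (41.6 ± 5.43 against 58.7 ± 3.72 CPM, adjusted p = 0.362). Medians of the log2 difference were -0.06 and -0.04 over the members, and -0.00 over all genes in both. The difference between the Treg and non-Treg contrast of KO and that of WT mice, tested as an interaction, gave 0 calls among members and 0% among all genes, with 1 member (*Slc7a5*) at an unadjusted p under 0.05 and 0 calls by DESeq2.

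The WT and KO contrasts of Treg against non-Treg cells share no library. Of the 9 members called in WT and the 7 called in KO, 5 were called in both (55.6% and 71.4% of each list): *Slc2a3*, *Slc7a10* and *Slc16a6* higher, and *Slc16a5* and *Slc36a1* lower. Over all genes, 694 were called in both, which is 46.1% of the WT calls and 79.4% of the KO calls. The sign of the difference was shared for 29 of 34 members (85.3%) and for 68.3% of all genes.

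**Figure D2:**
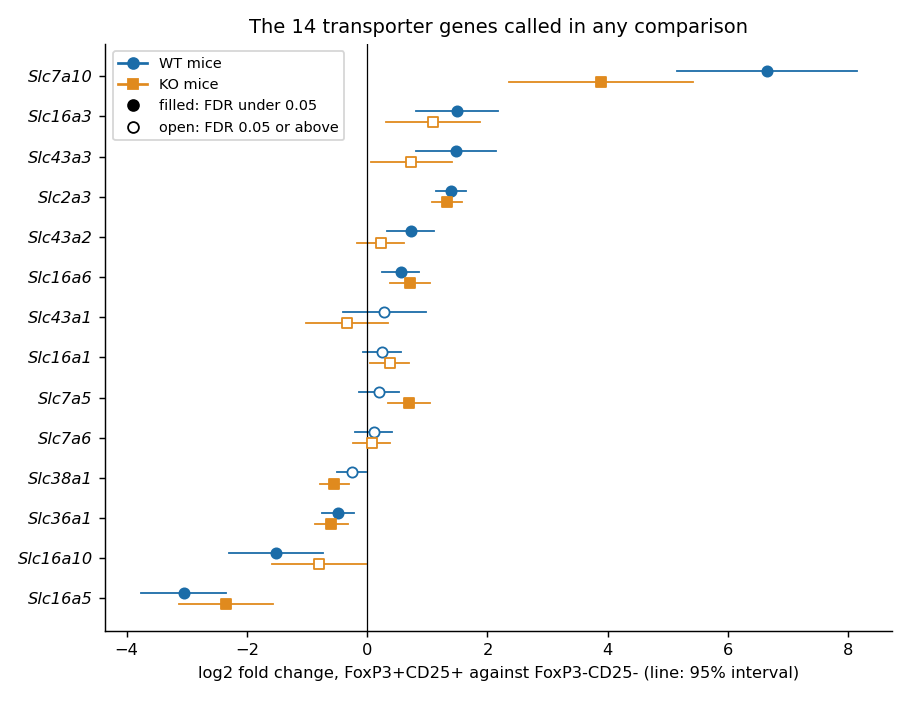
Log2 fold change of FoxP3+CD25+ against FoxP3-CD25- cells (x axis) in WT and in KO mice for the 14 transporter genes called in any comparison (y axis), from edgeR with 95% intervals and 2 libraries per group. The WT and KO points of a gene lie on the same side of 0 for 13 of the 14 genes, and *Slc43a1* is the exception.

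Among glucose carriers, *Slc2a3* was the gene that moved. Its product GLUT3 is a high-affinity glucose carrier. *Slc2a3* (GRCm38 chromosome 6, 122727809 to 122801640, minus strand) had 174 and 158 CPM in WT Treg, 146 and 155 in KO Treg, 107 and 116 in KO FoxP3+CD25-, 68.4 and 57.7 in WT FoxP3-CD25- and 60.5 and 59.8 in KO FoxP3-CD25- cells. The FoxP3+CD25- libraries were thus between the other groups, and no library overlapped with one of the next step. *Slc2a3* rose 2.63-fold in WT Treg cells (log2 1.39, SE 0.11, edgeR FDR 3.57e-05) and 2.51-fold in KO Treg cells (log2 1.33, SE 0.12, FDR 0.000111) over non-Treg cells of the same genotype.

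In KO FoxP3+CD25- cells *Slc2a3* was 1.85-fold higher than in KO FoxP3-CD25- cells (log2 0.89, SE 0.12, FDR 0.00386) and 1.77-fold higher than in WT FoxP3-CD25- cells (log2 0.82, SE 0.11, FDR 0.0103). It was 1.35-fold lower than in KO Treg cells (log2 -0.44, SE 0.11, FDR 0.0417) and 1.49-fold lower than in WT Treg cells (log2 -0.57, SE 0.11, FDR 0.00719). *Slc2a3* was therefore called in 6 of the 9 comparisons. Between KO and WT cells of the same population it was not called. Without WT replicate 1 the calls against both WT groups held, at log2 1.46 (Treg against non-Treg cells), 0.95 and -0.51. Leaving out KO FoxP3+CD25- replicate 2 or KO FoxP3-CD25- replicate 2 left the difference from KO FoxP3-CD25- cells at log2 0.83 and 0.88 with FDR 0.059 and 0.0512. The difference from WT non-Treg cells was lost without WT FoxP3-CD25- replicate 2 or KO FoxP3+CD25- replicate 2, that from WT Treg cells without KO FoxP3+CD25- replicate 1, and that from KO Treg cells without any 1 of the 4 libraries. The call against KO Treg cells was lost under 6 of its 9 alternatives in all, DESeq2 among them.

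The other glucose carriers were not called in any comparison. *Slc2a1*, the widely expressed GLUT1, lay between 44.5 and 62.8 CPM, with 58.7 and 56.0 in WT FoxP3+CD25+, 47.5 and 51.3 in WT FoxP3-CD25-, 47.5 and 62.8 in KO FoxP3+CD25+, 45.7 and 53.1 in KO FoxP3+CD25- and 44.5 and 49.1 in KO FoxP3-CD25- cells. The urate and fructose carrier gene *Slc2a9* (12.9 to 26.9 CPM), *Slc2a8* (3.90 to 9.22) and *Slc2a12* (2.43 to 6.09) were lower still.

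Monocarboxylate carriers, with 7 of the 34 tested genes, gave 12 of the 35 calls, over 5 genes. A gene counts once per comparison here, as *Slc16a5* does with 4 calls, and the comparisons share libraries. The calls are therefore not independent, and whether this family moved more than the others was not tested. *Slc16a5* encodes MCT6, whose substrates in T cells are not settled. It had 4.61 and 4.49 CPM in WT FoxP3+CD25+ and 2.75 and 5.37 in KO FoxP3+CD25+ cells, against 36.4 and 39.2 in WT FoxP3-CD25-, 15.5 and 26.2 in KO FoxP3-CD25- and 12.3 and 18.9 in KO FoxP3+CD25- cells. Every Treg library was below every other library. *Slc16a5* fell 8.28-fold in WT Treg cells (log2 -3.05, SE 0.32, edgeR FDR 0.000154) and 5.09-fold in KO Treg cells (log2 -2.35, SE 0.35, FDR 0.00259), and KO FoxP3+CD25- cells had 3.83-fold more than KO Treg cells (log2 1.94, SE 0.36, FDR 0.00739) and 3.48-fold more than WT Treg cells (log2 1.80, SE 0.34, FDR 0.00616).

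On this gene the KO FoxP3+CD25- libraries stood with KO non-Treg cells, whose range they overlapped. Against WT FoxP3-CD25- cells, *Slc16a5* had log2 -1.25 (SE 0.27, FDR 0.0814) in KO FoxP3+CD25- and log2 -0.84 (SE 0.27, FDR 0.385) in KO FoxP3-CD25- cells. Without the filter on low counts and with DESeq2, the first of these passed (FDR 0.00691 and 0.00706). The WT Treg call held without WT replicate 1 (log2 -3.12, FDR 0.00961). Without KO FoxP3+CD25+ replicate 2 the log2 difference was -2.94 in KO Treg against non-Treg cells and 2.52 for KO FoxP3+CD25- against KO Treg cells. The call against WT Treg cells was lost without WT replicate 1 and without KO FoxP3+CD25- replicate 2, and the call against KO Treg cells without KO FoxP3+CD25+ replicate 1 or KO FoxP3+CD25- replicate 2.

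The lactate carriers MCT1 and MCT4 took different courses. *Slc16a3* (MCT4, known for lactate export from glycolytic cells) had 11.3 and 9.69 CPM in WT FoxP3+CD25+ and 7.78 and 8.12 in KO FoxP3+CD25+ cells, and 2.32 to 4.87 CPM in the other 6 libraries. It rose 2.81-fold in WT Treg cells over WT non-Treg cells (log2 1.49, SE 0.31, FDR 0.00966) and was 2.96-fold lower in KO FoxP3+CD25- than in WT Treg cells (log2 -1.56, SE 0.33, FDR 0.0113). Both calls were lost without WT FoxP3+CD25+ replicate 1, the first also without WT FoxP3-CD25- replicate 1 and the second without either KO FoxP3+CD25- library. In KO mice its FDR was above 0.05 for Treg against non-Treg cells, and for KO FoxP3+CD25- against KO Treg cells it passed with the mouse as a block (log2 -1.19, FDR 0.0359).

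*Slc16a1* (MCT1, which carries lactate in either direction) was lowest in KO FoxP3+CD25- cells, with 22.0 and 24.4 CPM. The other 8 libraries had 30.8 to 41.9 CPM, namely 32.9 and 41.9 in WT Treg, 41.2 and 40.0 in KO Treg, 32.6 and 30.8 in WT non-Treg and 31.8 and 30.8 in KO non-Treg cells. *Slc16a1* was 1.74-fold lower than in KO Treg cells (log2 -0.80, SE 0.15, FDR 0.00754) and 1.61-fold lower than in WT Treg cells (log2 -0.69, SE 0.15, FDR 0.0123; log2 -0.85 without WT replicate 1). Against the FoxP3-CD25- groups the log2 differences were -0.43 (FDR 0.286) in KO and -0.45 (FDR 0.317) in WT. The calls against Treg cells were lost without either KO FoxP3+CD25- library, and also without KO FoxP3+CD25+ replicate 1 or WT FoxP3+CD25+ replicate 2.

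Of the remaining monocarboxylate carriers, *Slc16a6* (MCT7, linked to ketone body export in liver) rose in Treg cells by 1.47-fold in WT (37.7 and 35.4 against 23.9 and 26.0 CPM, FDR 0.0286) and by 1.64-fold in KO (35.7 and 37.9 against 21.0 and 23.8 CPM, FDR 0.0161). In KO FoxP3+CD25- cells (28.1 and 23.4 CPM) it was 1.43-fold below WT Treg cells (FDR 0.0451). Its exons share 1052 bases with *Amz2* on the other strand, whose level was 31.5 to 45.3 CPM, and reads of the shared stretch cannot be told apart without strand. *Slc16a10*, the aromatic amino acid carrier TAT1, fell 2.86-fold in WT Treg cells (4.99 and 3.43 against 13.3 and 10.6 CPM, log2 -1.52, SE 0.36, FDR 0.0185). Its KO values were 8.85 and 4.59 in Treg, 9.70 and 5.80 in FoxP3+CD25- and 13.1 and 10.1 CPM in non-Treg cells, and Treg against non-Treg cells passed there with the mouse as a block (log2 -0.82, FDR 0.0385). Without WT replicate 1, the calls of *Slc16a6* and *Slc16a10* in WT Treg cells were lost, that of *Slc16a10* also without WT FoxP3+CD25+ replicate 2. The call of *Slc16a6* in WT was also lost without WT FoxP3-CD25- replicate 2, without the filter and with DESeq2, and that in KO without any 1 of its 4 libraries (FDR up to 0.143). Its call in KO FoxP3+CD25- against WT Treg cells was lost without any 1 of the 4 libraries (FDR up to 0.324), without the filter and with DESeq2.

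**Figure D3:**
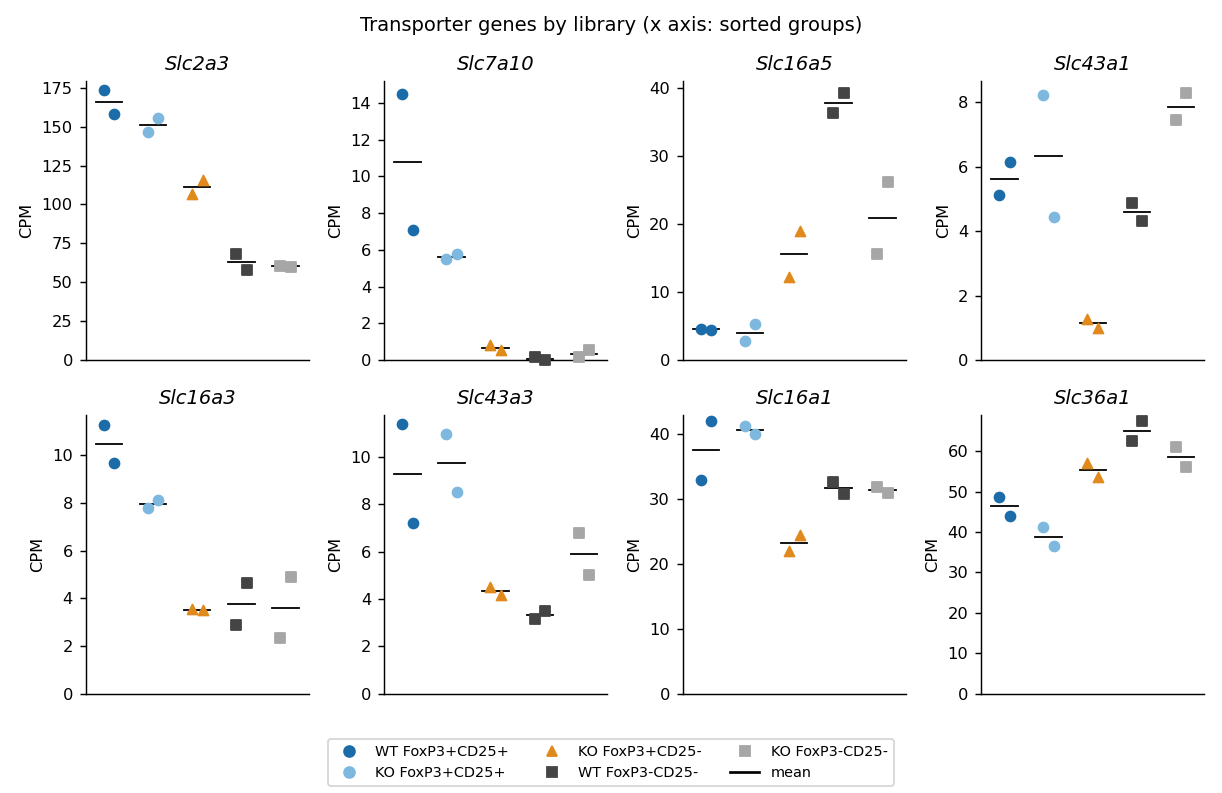
CPM (y axis, from 0) of 8 transporter genes in each of the 10 libraries, with 1 point per library, a line at the mean of 2 and the sorted groups side by side. *Slc2a3* steps down from Treg (146 to 174 CPM) over FoxP3+CD25- (107 to 116) to non-Treg cells (57.7 to 68.4), while *Slc43a1* is low in KO FoxP3+CD25- cells (0.985 to 1.29 CPM).

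Among carriers of large neutral amino acids, *Slc43a1* set KO FoxP3+CD25- cells apart. It encodes LAT3, a carrier of leucine and other branched-chain amino acids. *Slc43a1* (chromosome 2, 84838850 to 84863594, plus strand) was read 8 and 9 times in KO FoxP3+CD25- cells and 34 to 63 times in the other 8 libraries, or 1.29 and 0.985 CPM against 5.12 and 6.14 in WT Treg, 8.24 and 4.45 in KO Treg, 4.89 and 4.33 in WT non-Treg and 7.44 and 8.30 in KO non-Treg cells. Both libraries were below the other 8. It was 7.02-fold lower than in KO FoxP3-CD25- cells (log2 -2.81, SE 0.42, FDR 0.00791), 5.56-fold lower than in KO Treg cells (log2 -2.48, SE 0.43, FDR 0.0057) and 5.02-fold lower than in WT Treg cells (log2 -2.33, SE 0.43, FDR 0.00538; log2 -2.45 without WT replicate 1).

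Against WT FoxP3-CD25- cells *Slc43a1* had log2 -2.04 (SE 0.43, FDR 0.0718), and this passed without the filter (FDR 0.0152) and with DESeq2 (FDR 0.0165). Without KO FoxP3+CD25- replicate 2, the log2 differences of the 3 calls were between -2.59 and -2.10 with FDR from 0.0773 to 0.133. Without KO FoxP3-CD25- replicate 2, the FDR against KO FoxP3-CD25- cells was 0.0705.

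The promoter windows of 3 members were read from RefSeq (GRCm38.p6), 250 bases before the gene start that RefSeq gives, on the plus strand. That start is the GENCODE start for *Slc7a10*, lies 4 bases before it for *Slc16a1* and 1473 bases inside the GENCODE gene for *Slc43a1*, so that the window of *Slc43a1* belongs to a start further downstream than the coordinates given above. They are shown because *Slc43a1* and *Slc16a1* had both KO FoxP3+CD25- libraries below the other 8 and hold the E-box CACGTG, and *Slc7a10* because it differs most between Treg and non-Treg cells. *Slc43a1* and *Slc16a1* were thus picked on both traits at once, and a link between the traits was not tested. *Slc7a6* also had both KO FoxP3+CD25- libraries (52.4 and 44.7 CPM) below the other 8, and is not among the members found with CACGTG. Capitals mark CACGTG.
Slc43a1 (chr2:84840073-84840322): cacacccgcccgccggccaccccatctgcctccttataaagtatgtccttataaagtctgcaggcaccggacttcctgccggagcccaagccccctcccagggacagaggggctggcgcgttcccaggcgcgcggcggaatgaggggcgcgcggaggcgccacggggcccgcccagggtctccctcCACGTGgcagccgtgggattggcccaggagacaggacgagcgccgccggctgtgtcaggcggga
Slc16a1 (chr3:104638414-104638663): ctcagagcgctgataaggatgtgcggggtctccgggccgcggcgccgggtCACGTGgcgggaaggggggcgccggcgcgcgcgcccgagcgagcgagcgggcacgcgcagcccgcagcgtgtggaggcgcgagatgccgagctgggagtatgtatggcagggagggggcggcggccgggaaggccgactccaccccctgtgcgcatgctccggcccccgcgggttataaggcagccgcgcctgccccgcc
Slc7a10 (chr7:35186135-35186384): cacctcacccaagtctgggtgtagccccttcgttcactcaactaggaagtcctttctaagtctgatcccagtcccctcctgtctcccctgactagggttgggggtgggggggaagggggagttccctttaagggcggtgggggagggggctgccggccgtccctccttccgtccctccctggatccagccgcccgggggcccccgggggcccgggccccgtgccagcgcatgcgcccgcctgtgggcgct
Over the full windows, which run from 250 bases before to 50 after the start, CACGTG was found in 4 of 31 windows of the 24 tested members matched (*Slc16a1*, *Slc36a1*, *Slc38a7* and *Slc43a1*) and in 7.15% of all 32851 windows. The forkhead motif TGTTTAC was found in 0 of 31 (3.65% of all windows) and the AP-1 motif TGACTCA in 3 (*Slc2a9*, *Slc3a1* and *Slc7a1*, against 5.20%). Each was searched on both strands, they do not overlap as words, and a match describes the letters of the window alone.

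The other SLC43 genes rose in WT Treg cells. *Slc43a2*, the leucine carrier LAT4, had 138 and 98.2 CPM there against 67.1 and 75.7 CPM in WT non-Treg cells (1.65-fold, FDR 0.0227). *Slc43a3*, a carrier of purine bases rather than amino acids, had 11.4 and 7.21 against 3.15 and 3.51 CPM (2.78-fold, FDR 0.00892), and both calls were lost without WT replicate 1, that of *Slc43a2* also without WT FoxP3-CD25- replicate 2. In KO mice *Slc43a2* had 102 and 101 CPM in Treg, 67.1 and 92.8 in FoxP3+CD25- and 84.4 and 88.9 in non-Treg cells, and *Slc43a3* had 11.0 and 8.52, 4.53 and 4.16, and 6.78 and 5.01 CPM. *Slc43a3* was 2.24-fold lower in KO FoxP3+CD25- than in KO Treg cells (FDR 0.0497) and 2.14-fold lower than in WT Treg cells (FDR 0.0445), and neither call held without KO FoxP3+CD25- replicate 1 or 2 or with DESeq2. The first was also lost without either KO FoxP3+CD25+ library and with RLE factors, and the second without WT FoxP3+CD25+ replicate 1.

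*Slc7a5* (LAT1, the main leucine carrier of activated T cells) rose 1.62-fold in KO Treg over KO non-Treg cells, with 72.3 and 62.6 against 45.5 and 37.8 CPM (log2 0.70, SE 0.16, FDR 0.0235). In WT mice it had 62.6 and 71.3 in Treg against 61.3 and 56.0 CPM in non-Treg cells, which was not called, and the difference between the WT and KO contrasts was log2 0.51 (SE 0.22, adjusted p = 0.978 with edgeR). The KO FoxP3+CD25- libraries had 53.3 and 41.6 CPM, and the gene was called lower there than in KO Treg cells with the mouse as a block (log2 -0.52, FDR 0.00803). The KO Treg call was lost when any of its 4 libraries was left out.

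Of *Slc3a2*, *Slc7a6* and *Slc7a11*, *Slc7a6* alone was called in the fit without a block, in 1 comparison. *Slc3a2*, the CD98 heavy chain without which LAT1 does not reach the membrane, lay between 95.6 and 115 CPM in the 10 libraries and was called in no comparison. *Slc7a6* (y+LAT2, another CD98 partner) had 69.4 and 69.9 CPM in WT Treg, 67.1 and 62.1 in WT non-Treg, 67.9 and 55.4 in KO Treg, 52.4 and 44.7 in KO FoxP3+CD25- and 63.5 and 53.6 in KO non-Treg cells. It was called lower in KO FoxP3+CD25- than in WT Treg cells (1.44-fold, FDR 0.036), and not when any 1 of the 4 libraries was left out. In all, 6 of the 9 alternatives lost this call. *Slc7a11*, the cystine carrier xCT, was barely present, with at most 8 counts in a library.

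*Slc7a10* had the largest fold difference among the members. It encodes Asc-1, a carrier of small neutral amino acids such as serine, glycine and alanine, known mainly from brain and fat. *Slc7a10* (chromosome 7, 35186385 to 35201114, plus strand) had 113 and 60 counts in WT Treg, 36 and 44 in KO Treg, 5 and 5 in KO FoxP3+CD25-, 2 and 0 in WT non-Treg and 1 and 4 in KO non-Treg cells, which was 14.5 and 7.09, 5.49 and 5.76, 0.808 and 0.547, 0.166 and 0, and 0.165 and 0.527 CPM. Every Treg library was above every other library.

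The ratio of summed counts per effective library size was 116 for WT Treg against WT non-Treg cells (95% exact interval 31.5 to 962, counting error alone, edgeR FDR 6.11e-05) and 15.4 for KO Treg against KO non-Treg cells (6.32 to 48.7, FDR 0.00513). KO FoxP3+CD25- cells were lower than KO Treg cells (ratio of KO Treg to them 8.64, 4.46 to 18.7, FDR 0.00737) and lower than WT Treg cells (16.3, 8.65 to 34.6, FDR 0.000408). The ratio of KO FoxP3+CD25- to KO FoxP3-CD25- cells was 1.78 with an interval of 0.554 to 6.63, so a difference was not detectable at this depth. Without WT replicate 1 both WT calls held (FDR 0.00282 and 0.00328). The size of the difference moved with single libraries. The fitted log2 fold change in WT Treg over non-Treg cells was 6.64 with all libraries, 6.06 without WT FoxP3+CD25+ replicate 1, 5.88 without WT FoxP3-CD25- replicate 2 and 9.35 without WT FoxP3-CD25- replicate 1, where the library left had 0 counts, so that the last value depends on the prior count and is no bound. In KO it was 3.89, and 4.97 without KO FoxP3-CD25- replicate 2. For KO FoxP3+CD25- against WT Treg cells it was -4.00, and -3.41 without WT FoxP3+CD25+ replicate 1. Leaving out KO FoxP3-CD25- replicate 1 ended the KO Treg call (FDR 0.0523), and leaving out KO FoxP3+CD25- replicate 2 ended that against KO Treg cells (FDR 0.105).

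*Slc7a10* shares 377 exon bases with *Lrp3* on the other strand, and the labels do not say that strand was kept. *Lrp3* had 4.61 and 2.48 CPM in WT Treg and 1.98 and 0.655 in KO Treg cells, and at most 0.165 CPM in the other 6 libraries, so it was high and low in the same groups. Reads of the shared bases cannot be told apart.

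The SLC38 and SLC1 carriers gave 1 call between populations. *Slc38a1* (SNAT1) fell 1.46-fold in KO Treg cells (210 and 191 CPM against 299 and 287 in KO non-Treg cells, log2 -0.55, SE 0.11, FDR 0.0138), and the call was lost when any 1 of the 4 libraries was left out (FDR up to 0.147). In WT it had 247 and 209 against 266 and 280 CPM, and in KO FoxP3+CD25- cells 263 and 247 CPM. It was called higher in KO FoxP3+CD25- than in KO Treg cells under the mouse block (log2 0.35, FDR 0.0228). *Slc38a2* (SNAT2) lay between 291 and 392 CPM in the 10 libraries, *Slc38a10* between 127 and 160 CPM and the lysosomal arginine sensor *Slc38a9* between 39.9 and 52.6 CPM, and they were called in no comparison.

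*Slc1a5* (ASCT2, the glutamine carrier) had 191 and 156 CPM in WT Treg and 157 and 156 in WT non-Treg cells. In KO mice it split by replicate number, with 85.3 and 255 CPM in Treg, 66.1 and 193 in FoxP3+CD25- and 84.0 and 267 in non-Treg cells, replicate 1 first. It was called in no comparison of groups in the fit without a block. With the mouse as a block, KO FoxP3+CD25- cells had less *Slc1a5* than KO non-Treg cells (log2 -0.41, FDR 0.0224) and than KO Treg cells (log2 -0.39, FDR 0.0156), which is the direction within each mouse. *Slc1a4* (ASCT1) was low, at 1.22 to 4.89 CPM.

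**Figure D4:**
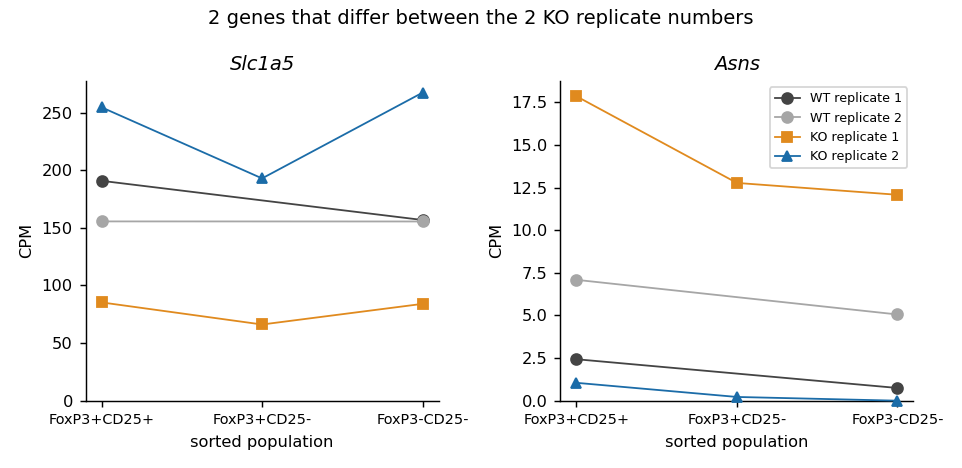
CPM (y axis, from 0) of *Slc1a5* and of *Asns* (asparagine synthetase) in each sorted population (x axis), with 1 line per genotype and replicate number. KO replicate 1 is the lowest for *Slc1a5* (66.1 to 85.3 CPM) and the highest for *Asns* (12.1 to 17.9 CPM), and KO replicate 2 the reverse.

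*Slc36a1*, the proton-coupled amino acid carrier PAT1 of lysosome and plasma membrane, fell in Treg cells of both genotypes. It had 48.8 and 44.1 CPM in WT Treg against 62.6 and 67.5 in WT non-Treg cells (1.40-fold, FDR 0.0227) and 41.2 and 36.4 in KO Treg against 61.0 and 56.1 in KO non-Treg cells (1.51-fold, FDR 0.0156). At 57.1 and 53.6 CPM, KO FoxP3+CD25- cells had 1.43-fold more than KO Treg cells (FDR 0.0295). The WT call was lost without WT replicate 1, without either replicate 2 and with DESeq2, both KO calls when any library concerned was left out, and that against KO FoxP3+CD25- cells also without the filter and with DESeq2.

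*Slc36a4* (PAT4) had 28.4 and 30.5 CPM in WT Treg and 28.8 and 26.3 in KO Treg cells, against 16.6 and 25.2 in WT non-Treg, 20.5 and 24.6 in KO non-Treg and 18.8 and 20.1 in KO FoxP3+CD25- cells, and passed in WT with the mouse as a block alone (log2 0.52, FDR 0.0361). *Slc7a1*, the arginine carrier CAT-1, lay between 98.3 and 128 CPM and passed in WT under the same block (log2 -0.26, FDR 0.0389).

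With the mouse as a block, the members called between KO FoxP3+CD25- and KO Treg cells numbered 13 rather than 7, with 3 higher and 10 lower. The share of all genes called rose in the same fit from 7.01% to 15.1% (6.15% higher, 9% lower). The 6 added were *Slc16a3*, *Slc16a6*, *Slc1a5*, *Slc7a5* and *Slc7a6*, each lower, and *Slc38a1*, higher. Leaving out single libraries left between 0 and 4 of the 7, with 0 when KO FoxP3+CD25- replicate 2 was absent.

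Genes around the carriers were taken from 4 lists. The lists were chosen with earlier results of these data known, so their shares beside those of all genes are descriptions alone. Of 33 tested genes of amino acid sensing by mTORC1, 3 rose in WT Treg cells (9.09%, against 10.9% of all genes) and 1 in KO Treg cells (3.03%, against 6.34%). *Rragd*, one of the Rag GTPases that bring mTORC1 to the lysosome, had 33.9 and 36.0 CPM in WT Treg, 18.6 and 33.8 in KO Treg, 3.07 and 3.50 in KO FoxP3+CD25-, 2.57 and 3.82 in WT non-Treg and 2.32 and 2.37 in KO non-Treg cells. It rose with log2 3.47 (SE 0.30, FDR 4.64e-05) in WT and log2 3.48 (SE 0.35, FDR 0.000245) in KO Treg cells over non-Treg cells, and was lower in KO FoxP3+CD25- than in KO Treg cells (log2 -2.99, SE 0.32, FDR 0.000356).

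*Sesn2*, a leucine sensor, and *Wdr59*, a GATOR2 subunit, rose in WT Treg cells as well (log2 0.83 and 0.66) and were lower in KO FoxP3+CD25- than in KO Treg cells (log2 -0.84 and -0.67). The 2 WT calls were lost without WT replicate 1. Under the mouse block this list had 7 calls in WT Treg cells, 4 higher and 3 lower, 3 in KO Treg cells, and 1 between KO FoxP3+CD25- and KO FoxP3-CD25- cells, where the fit without a block had 0. All genes had more calls under that block too, 19.1% in WT Treg cells (11.3% higher, 7.76% lower), 12% in KO Treg cells and 5.7% between KO FoxP3+CD25- and KO FoxP3-CD25- cells.

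Of 15 tested partners and regulators of glucose and lactate transport, 4 (26.7%, against 10.9% of all genes) were called in WT Treg cells, 3 higher and 1 lower, and 3 (20%, against 6.34%) in KO Treg cells, 2 higher and 1 lower. *Hk2*, hexokinase 2, which traps glucose as its phosphate, rose with log2 2.55 (SE 0.30, FDR 0.000355) in WT and log2 1.42 (SE 0.33, FDR 0.0254) in KO Treg cells. *Emb*, embigin, a chaperone of monocarboxylate carriers, fell with log2 -1.09 (SE 0.10, FDR 4.95e-05) and log2 -0.82 (SE 0.10, FDR 0.000548). The other MCT chaperone, *Bsg* (basigin), lay between 74.1 and 98.6 CPM and was called in no comparison without a block. *Arrdc4*, of the arrestin family that removes GLUT1 from the membrane, rose with log2 3.50 and 1.80.

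For *Hk2*, *Arrdc4*, *Emb* and *Hif1a* the KO FoxP3+CD25- libraries were nearer those of non-Treg than those of Treg cells. *Hif1a* was below every other library (167 and 161 CPM, against 192 to 241 in non-Treg cells). Against KO FoxP3-CD25- cells it had log2 -0.51 (edgeR FDR 0.145) and *Hk2* log2 -1.39 (FDR 0.238). *Hk2* had 1.45 and 0.766 CPM in KO FoxP3+CD25-, 9.60 and 10.4 in WT Treg, 8.39 and 6.68 in KO Treg, 1.99 and 1.34 in WT non-Treg and 2.65 and 2.90 CPM in KO non-Treg cells. Against KO Treg cells, KO FoxP3+CD25- cells had lower *Hk2* (log2 -2.82, FDR 0.00133), *Arrdc4* (log2 -2.71, FDR 0.00128) and *Hif1a* (log2 -0.82, FDR 0.00588) and higher *Emb* (log2 0.68, FDR 0.00166). No gene of this list was called between KO FoxP3+CD25- and KO FoxP3-CD25- cells by edgeR without a block. Under the mouse block *Hif1a* and *Txnip* were, and *Ldhb* and *Myc* were called higher in Treg cells of both genotypes. In the interaction of genotype and population *Hif1a* alone of the list was called under that block, with the smaller Treg over non-Treg difference in KO. The fit without a block called 0% of all genes in the interaction and the blocked fit 1.07%. Without a block, *Hif1a* in Treg against non-Treg cells had log2 1.01 (edgeR FDR 0.00104) in WT and log2 0.32 (FDR 0.317) in KO. Its WT Treg values were 473 CPM in replicate 1 and 336 CPM in replicate 2.

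**Figure D5:**
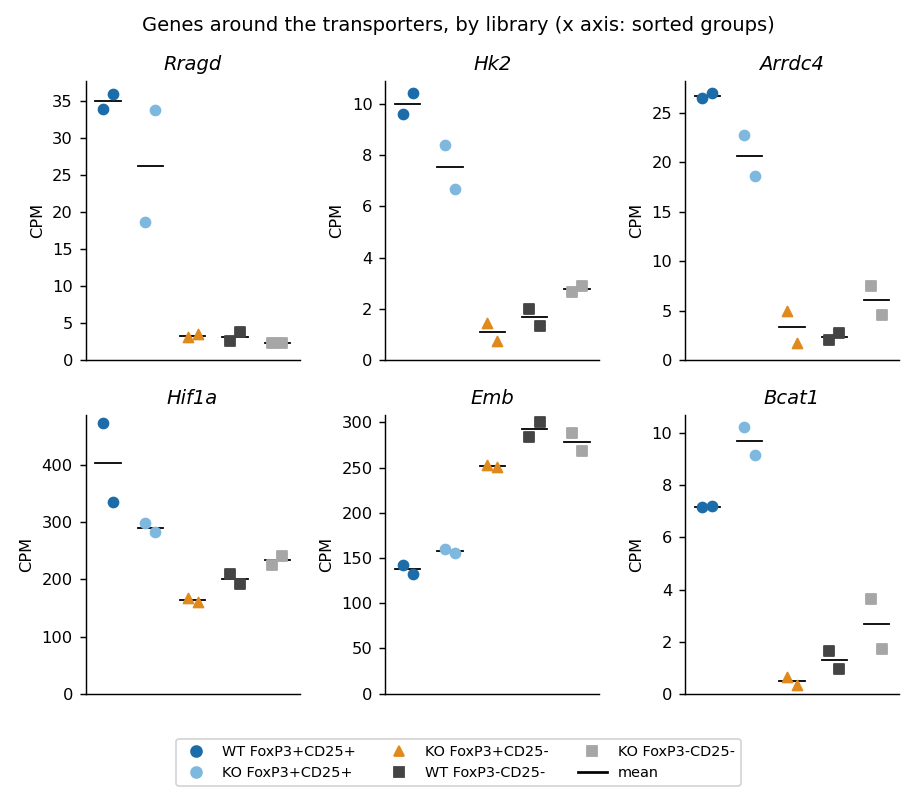
CPM (y axis, from 0) of 6 genes of the lists in each of the 10 libraries, with 1 point per library, a line at the mean of 2 and the sorted groups side by side. *Rragd*, *Hk2* and *Arrdc4* are high in the 4 Treg libraries, and *Emb* is lowest there (133 to 159.6 CPM against 250.4 to 300.3 CPM).

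Of 19 tested enzymes of glutamine, arginine and branched-chain amino acid use, 1 (5.26%, below the share of all genes) rose in each genotype's Treg cells, *Bcat1*, the cytosolic aminotransferase of branched-chain amino acids. It had 7.17 and 7.21 CPM in WT Treg, 10.2 and 9.17 in KO Treg, 0.647 and 0.328 in KO FoxP3+CD25-, 1.66 and 0.929 in WT non-Treg and 3.64 and 1.71 in KO non-Treg cells. The differences were log2 2.42 (FDR 0.00157) in WT and log2 1.90 (FDR 0.00928) in KO Treg cells, and log2 -4.36 (FDR 0.000393) for KO FoxP3+CD25- against KO Treg cells. The KO FoxP3+CD25- libraries had 4 and 3 *Bcat1* counts, where a count of 3 was taken as the floor. The size of any *Bcat1* difference from that group is therefore uncertain. *Odc1*, ornithine decarboxylase, and *Got2*, mitochondrial aspartate aminotransferase, were also lower in KO FoxP3+CD25- than in KO Treg cells (log2 -1.70 and -0.59). With the mouse as a block, *Bcat1* and *Odc1* were called lower in KO FoxP3+CD25- than in KO FoxP3-CD25- cells as well, and *Odc1* higher in Treg cells of both genotypes.

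Of 15 tested genes of the amino acid response by GCN2 and ATF4, 1 (6.67%) was called in WT Treg cells and 0 in KO Treg cells by edgeR, both below the share of all genes. The serine synthesis enzyme gene *Psat1* was lower in KO FoxP3+CD25- than in KO Treg cells (25.1 ± 2.69 against 49.3 ± 4.30 CPM, log2 -0.98, SE 0.15, FDR 0.00228), and under the mouse block it was called lower than in KO non-Treg cells too. *Stc2*, a secreted glycoprotein gene, was at 0.546 ± 0.230 CPM in WT Treg and 2.62 ± 0.635 in WT non-Treg cells (FDR 0.013), and that call was lost without WT replicate 1.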

How the data were processed

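Libraries were made from sorted spleen CD4+ T cells and sequenced to 50 bases. According to the submitters' processing notes, the authors aligned reads with HISAT2 2.1.0 to mm10 and counted them with HTSeq 0.11.1. The deposited values are raw counts per gene, 1 library per sample. The strand setting is not given in the sources used here. Rows of HTSeq that name no gene were left out; reads without a feature were 1.32 to 1.53 times those on genes.

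The members and gene lists were chosen with earlier results of these data known. Genes passing filterByExpr (minimum count 10) were tested with edgeR 4.0.16 (TMM factors, quasi-likelihood F-test, two-sided, Benjamini-Hochberg over 13796 genes, FDR under 0.05), with all 10 libraries in 1 model of 5 group means. The script was tested on simulated data. CPM used TMM effective sizes, and CPM per kilobase used exon lengths of GENCODE M21. A count of 3 in a library, 0.242 to 0.492 CPM, was the floor. Counts of the 2 libraries of a group differed beyond sampling noise in each group. With 2 libraries a group, an exact permutation test cannot go below p = 0.333. Named were members called in any comparison, 19 fixed members, the 10 of highest level, and up to 4 called genes per list and comparison.

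Libraries with the same number were read as 1 mouse. Their deviations from group means correlated at 0.303 in WT and at 0.421 to 0.445 in KO mice across 13796 genes, and at -0.0114 to 0.114 between genotypes, so the block by mouse was fitted within genotype. Alternatives were DESeq2 1.42.0, RLE factors, no filter, blocks by number and by mouse, and libraries left out. The effect of WT replicate 1 and of the mouse block on the gene lists was added after the data were seen.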

Additional observations from a re-analysis of the deposited data

How the results depend on the processing

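Of the 35 member calls, 6 held under every alternative run, 0 changed direction and 29 lost significance under at least 1, of which 8 did so under RLE factors, DESeq2 or no filter; the cause was not tested beyond the fewer libraries of the fits that leave one out. The number of members called moved by over 1.5 times in these cases. KO FoxP3+CD25- against KO FoxP3+CD25+ cells gave 4 with DESeq2 and 13 with the replicate block by mouse (7 otherwise). KO FoxP3+CD25- against WT FoxP3-CD25- cells gave 3 without the filter, 3 with DESeq2 and 2 with the replicate block by number (1 otherwise). Without WT replicate 1 in both populations, WT Treg against WT non-Treg cells gave 3 and KO FoxP3+CD25- against WT Treg cells 4 (9 otherwise in each). Leaving out single libraries gave 3 to 7 for WT Treg against non-Treg cells, 2 to 3 for KO Treg against non-Treg cells, 0 to 2 for KO FoxP3+CD25- against KO FoxP3-CD25-, 0 to 4 against KO FoxP3+CD25+, 0 to 1 against WT FoxP3-CD25- and 3 to 7 against WT FoxP3+CD25+ cells. The 3 comparisons without calls had 0 under each alternative. The pairing by mouse changed no other count by over 1.5 times. Apart from the mouse block, calls over all genes in the alternative fits are not given here. These counts therefore do not show whether transporter genes moved more than other genes. With 5 residual degrees of freedom and counts under 10 in some groups, small changes of *Slc43a1*, *Slc7a10* and the low members were beyond what this depth shows.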

Other observations

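*Slc1a5* was the one transporter gene of 34 that differed by over 1 on the log2 scale between KO replicates 1 and 2 in the same direction in the 3 sorted populations (log2 1.57, 1.54 and 1.67, replicate 2 minus 1, with a prior count of 2). In WT cells the differences were -0.29 and -0.01. Of all 13796 genes, 106 (0.768%) differed in this way. The asparagine synthetase gene *Asns*, of the amino acid response list, was among them in the opposite direction. It had 17.9, 12.8 and 12.1 CPM in the FoxP3+CD25+, FoxP3+CD25- and FoxP3-CD25- cells of KO replicate 1 and 1.05, 0.219 and 0 CPM in those of replicate 2, against 2.43 and 0.745 CPM in WT replicate 1 and 7.09 and 5.06 CPM in WT replicate 2.

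The 106 genes were unevenly placed. On chromosome 7, where *Slc1a5* lies from 16781340 to 16798274 (GRCm38), 12 of them fell between 4445697 and 25365917, a stretch with 163 tested genes (7.36%), while 0.637% of placed genes elsewhere did. The stretch was drawn after the genes were seen, and its bounds are those of the genes themselves, so no test is given. The 5 tested genes that start within 100000 bases of *Slc1a5* differed by -0.51 to 0.11. What sets the 2 KO mice apart was not tested.

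Group means of *Slc1a5* in KO mice average over 66.1 to 85.3 CPM in replicate 1 and 193 to 267 CPM in replicate 2, and comparisons of KO with WT cells have a spread for this gene that those within a mouse do not have.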
